A study of Mus musculus with 8 samples.

Results

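The genes described here are Sox1, Sox3, Sox4, Sox5, Sox6, Sox8, Sox9, Sox10, Sox11, and Sox21, the 10 rows with these symbols among the 24354 genes listed. Poly-A RNA was sequenced in 8 mouse libraries, 2 in each of 4 groups, and expression is given as FPKM, fragments normalised to transcript length in kilobases and to each 1000000 mapped. ESCs were the E14 embryonic stem cell line, labelled wild type and grown in serum with LIF. NSCs were neural stem cells heterozygous for both the OG2 transgene, which drives GFP from the Oct4 distal enhancer, and the ubiquitous lacZ of ROSA26, and were grown on gelatin in N2 medium with EGF and FGF2. EPSCs, extended pluripotent stem cells, were C57BL/6 cells labelled wild type, at passage 15 in LCDM, which is N2B27 with minocycline hydrochloride, dimethindene maleate, CHIR99021, and human LIF. Hybrid cells were tetraploid products of polyethylene glycol fusion of EPSCs with NSCs, sampled at passage 10 in LCDM. ESCs, EPSCs, and hybrid cells shared a layer of C3H mouse embryonic fibroblasts inactivated with mitomycin C, which NSCs lacked. Both libraries of a group came from 1 line, so p-values measure the spread between repeated libraries and not between independent derivations or fusions.

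Sox genes encode transcription factors that bind DNA through an HMG box and are grouped by the similarity of this domain. The SoxB1 factors Sox1 and Sox3, with Sox2, maintain neural progenitors, and Sox21 of SoxB2 counteracts them. The SoxC factors Sox4 and Sox11 act as progenitors become neurons, the SoxD factors Sox5 and Sox6 modulate glial and cartilage programs, and the SoxE factors Sox8, Sox9, and Sox10 act in glia, neural crest, and, for Sox9, cartilage. Sox2, the member of the family best known in pluripotent cells, is not among the 10 genes and serves only for comparison.

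All 10 genes were highest in NSCs. The separation of the set from pluripotent cells was not complete, since Sox4, Sox11, and Sox21 were above 1 FPKM in every ESC, EPSC, and hybrid library. Depth, derived from the steps between FPKM values, lay from 22.1 to 32.6 in units of 1000000 fragments per library, and a 2-kb transcript with 3 fragments would read between 0.0511 and 0.0755 FPKM, a limit set by counting error alone. The neural progenitor list (10 genes such as Fabp7 and Slc1a3) summed to 3728 and 3777 FPKM in NSCs, 31.1 FPKM in both EPSC libraries, 18.2 and 18.7 FPKM in hybrid cells, and 17.7 and 19.1 FPKM in ESCs. The pluripotent cell list of 8 genes summed to 2.35 and 2.93 FPKM in NSCs and to 4723 FPKM or more in every other library, so the labels of cell type matched their markers.

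The sequences before the annotated starts of Sox4, Sox11, Sox21, and Sox8 are shown because Sox4 and Sox21 were higher in hybrid cells than in EPSCs, Sox11 was lower, and Sox8 was the most abundant of the genes in NSCs. RefSeq of GRCm38.p6 gave start windows for 7 of the 10 genes (all but Sox3, Sox9, and Sox10). The 250 bases before the start are printed on the strand of the gene, which is the minus strand in all 4 cases, at chr13:28953700-28953949 for Sox4, chr12:27342719-27342968 for Sox11, chr14:118237031-118237280 for Sox21, and chr17:25570687-25570936 for Sox8. Capitals mark CCAAT or its reverse complement ATTGG, a motif chosen after the sequences had been read.
Sox4: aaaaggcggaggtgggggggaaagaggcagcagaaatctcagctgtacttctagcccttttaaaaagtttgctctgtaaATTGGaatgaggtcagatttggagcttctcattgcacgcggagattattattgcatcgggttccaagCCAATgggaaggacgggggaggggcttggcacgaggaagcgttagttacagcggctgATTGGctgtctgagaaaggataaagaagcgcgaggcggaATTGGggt
Sox11: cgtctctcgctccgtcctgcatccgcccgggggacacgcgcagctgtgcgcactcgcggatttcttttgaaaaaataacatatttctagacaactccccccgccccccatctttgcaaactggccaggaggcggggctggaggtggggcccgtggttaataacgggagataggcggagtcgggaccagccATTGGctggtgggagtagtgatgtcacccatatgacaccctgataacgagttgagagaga
Sox21: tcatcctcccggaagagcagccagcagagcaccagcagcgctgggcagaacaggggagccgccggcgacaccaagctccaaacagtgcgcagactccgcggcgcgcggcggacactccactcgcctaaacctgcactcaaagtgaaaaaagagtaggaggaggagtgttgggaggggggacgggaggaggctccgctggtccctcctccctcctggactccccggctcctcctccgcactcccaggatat
Sox8: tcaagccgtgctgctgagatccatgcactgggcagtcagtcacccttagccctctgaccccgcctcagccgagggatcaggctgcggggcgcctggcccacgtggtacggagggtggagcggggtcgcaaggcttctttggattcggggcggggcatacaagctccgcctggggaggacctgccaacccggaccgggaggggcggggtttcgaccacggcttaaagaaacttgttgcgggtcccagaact

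Sox4 held 4 of these matches, starting at −171, −104, −47, and −8 relative to the start, Sox11 held 1 at −60, and Sox21 and Sox8 held none. A match on either strand is present in 33.8% of the 32851 RefSeq windows of this length, and at least 2 in 10.1%. CG dinucleotides numbered 11 in Sox4, 17 in Sox11, 17 in Sox21, and 18 in Sox8, against a median of 6 over all windows. The windows of Sox4 and Sox11 thus differed in the number of matches and of CG dinucleotides. A relation of these numbers to the levels was not tested, and no measurement of factor binding or methylation at these sequences was used here. The RefSeq start of Sox11 differs from that of GENCODE M21, whose Sox11 transcript does not hold the 50 bases after it, so the Sox11 window is placed by RefSeq alone. A match is a description of the letters and not of a binding site.

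Among the neural SoxB1 genes, Sox3 (chrX:60891366-60893430, minus strand, a single exon) was at 40.1 and 37.2 FPKM in NSCs and was the third most abundant of the 10 genes there. Its values were 1.29 and 1.87 FPKM in ESCs, 0.876 and 0.912 FPKM in EPSCs, and 1.37 and 1.51 FPKM in hybrid cells. Both hybrid libraries therefore lay above both EPSC libraries and within the range of the ESC libraries, and all 6 lay far below NSCs. Sox1 (chr8:12395519-12399555, plus strand, a single exon) was at 13.0 and 12.7 FPKM in NSCs and at 0.858 and 0.709 FPKM in ESCs. Its values were lower still in the LCDM cultures, at 0.247 and 0.294 FPKM in EPSCs and 0.141 and 0.172 FPKM in hybrid cells, levels that rest on 21 and 26 fragments in EPSCs and 13 and 15 in hybrid cells. The order NSC, ESC, EPSC, hybrid held for Sox1 with no overlap of libraries between neighbours, whereas Sox3 overlapped between ESCs and hybrid cells. Sox21 (chr14:118233233-118237030, minus strand, a single exon), the SoxB2 gene that counteracts the SoxB1 factors, was at 24.5 and 23.5 FPKM in NSCs. It was at 3.18 and 3.48 FPKM in ESCs, 1.13 and 1.55 FPKM in EPSCs, and 3.08 and 4.56 FPKM in hybrid cells. The hybrid cell level of Sox21 overlapped that of ESCs, was above both EPSC libraries, and was 15.9% of the NSC mean.

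**Figure D1:**
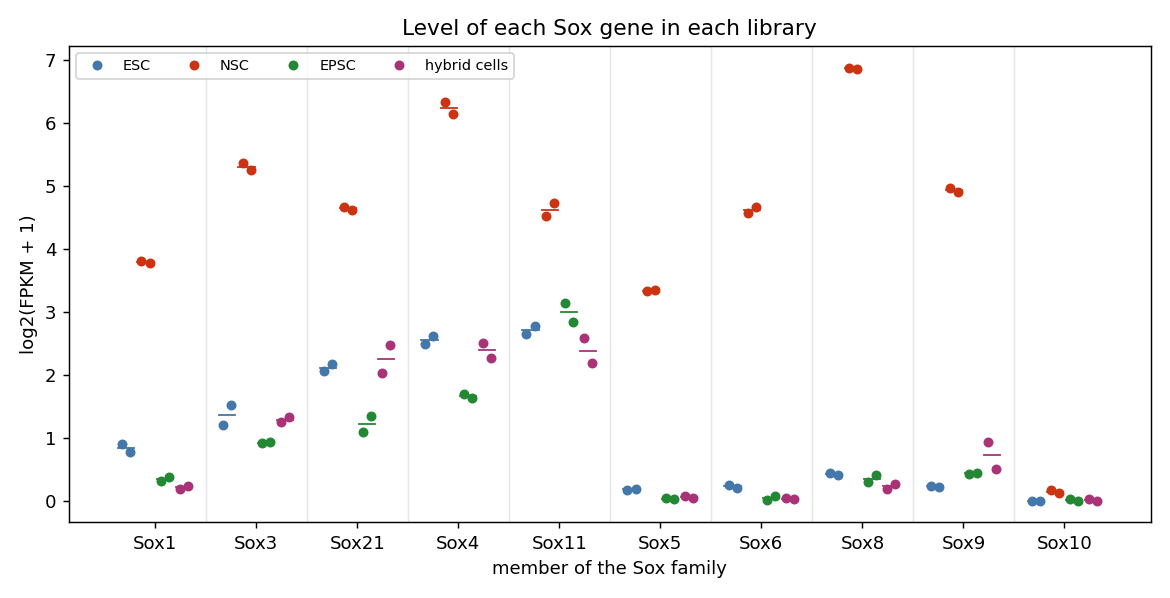
Level of each of the 10 Sox genes on the log2(FPKM + 1) scale, with 1 point per library, coloured by group, and a short line at each group mean. For 9 genes the NSC libraries stand apart above all others, highest for Sox8 at 116.8 and 115.3 FPKM, and Sox10 stays near 0 throughout.

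By group mean, the SoxC genes were the members with the most RNA outside NSCs. In the second hybrid library, however, Sox21 (4.56 FPKM) was above both. Sox4 (chr13:28948919-28953699, minus strand, a single exon) was at 79.8 and 69.4 FPKM in NSCs, 4.59 and 5.16 FPKM in ESCs, 2.22 and 2.10 FPKM in EPSCs, and 4.69 and 3.83 FPKM in hybrid cells. As for Sox21, the hybrid libraries lay above both EPSC libraries and overlapped ESCs. Sox11 (chr12:27334268-27342718, minus strand, a single exon) was at 21.9 and 25.4 FPKM in NSCs and showed another order, with 7.85 and 6.18 FPKM in EPSCs, 5.29 and 5.86 FPKM in ESCs, and 4.98 and 3.56 FPKM in hybrid cells. No neighbours in this order overlapped, but the gap between the nearest EPSC and ESC libraries was smaller than the difference between both EPSC libraries, and that between ESCs and hybrid cells was smaller than the difference between both hybrid libraries. Hybrid cells held 5.71% of the NSC mean of Sox4 and 18.0% of that of Sox11, the highest such share among the 9 genes tested. The longest identical stretch shared by Sox4 and Sox11 transcripts was 48 bases, the longest between any members and shorter than a 100-base read.

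The SoxD genes were close to the floor outside NSCs. Sox6 (chr7:115470872-116040776, minus strand) was at 22.8 and 24.3 FPKM in NSCs, 0.184 and 0.152 FPKM in ESCs, 0.0110 and 0.0528 FPKM in EPSCs, and 0.0252 and 0.0160 FPKM in hybrid cells. Sox5 (chr6:143828425-144782287, minus strand) was at 9.01 and 9.13 FPKM in NSCs, 0.126 and 0.142 FPKM in ESCs, 0.0327 and 0.0122 FPKM in EPSCs, and 0.0523 and 0.0313 FPKM in hybrid cells. In fragments, the Sox5 values corresponded to 29 and 30 in ESCs, 5 and 2 in EPSCs, and 9 and 5 in hybrid cells, so EPSCs and hybrid cells were not distinguishable at this depth. ESC libraries lay above all EPSC and hybrid libraries for both genes, at less than 0.2 FPKM.

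Of the SoxE genes, Sox8 (chr17:25565893-25570686, minus strand) had the highest NSC level of the set, 116.8 and 115.3 FPKM, which was above that of 97.7% of all genes listed. It was at 0.362 and 0.323 FPKM in ESCs, 0.226 and 0.326 FPKM in EPSCs, and 0.134 and 0.204 FPKM in hybrid cells, or 33 and 27, 14 and 21, and 9 and 13 fragments. Only the hybrid libraries were below all ESC and EPSC libraries, whose ranges overlapped. An antisense gene, 2810468N07Rik, overlaps an exon of Sox8 and the window printed above, and was at 15.8 and 16.4 FPKM in NSCs and 0.110 to 0.544 FPKM elsewhere. The kit marks strand, but the strand setting of the counting is not given in the sources used here, so reads of the pair may not be fully separated. Sox9 (chr11:112782210-112787757, plus strand), a gene of radial glia and astrocytes as well as of cartilage, was at 30.2 and 28.8 FPKM in NSCs, 0.179 and 0.162 FPKM in ESCs, 0.343 and 0.352 FPKM in EPSCs, and 0.905 and 0.423 FPKM in hybrid cells. It was the only member other than Sox11 with both EPSC libraries above both ESC libraries, and the hybrid libraries differed more than 2-fold from each other. These levels corresponded to about 23 and 19 fragments in ESCs, 30 and 32 in EPSCs, and 85 and 38 in hybrid cells. Sox10 (chr15:79154913-79164490, minus strand), the SoxE gene of oligodendrocytes and neural crest, was at 0.125 and 0.0828 FPKM in NSCs. These values came from 9 fragments (exact 95% Poisson interval 4.12 to 17.1) and 6 fragments (2.2 to 13.1), against 1 fragment in 1 EPSC and 1 hybrid library and 0 in the other 4 libraries, where the same interval reaches 3.69. Sox10 did not reach the filter of the test.

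Before fusion, the question was how far the Sox genes separated the neural and the pluripotent parent. With no filter on low values, limma called all 10 genes lower in EPSCs, beside 32.8% of 19144 genes, with Sox10 at −0.13 (adjusted p = 0.00319, limma with Benjamini-Hochberg adjustment). The filter of at least 1 FPKM in a group left 9 genes, and Sox1, Sox5, Sox6, Sox8, and Sox9 passed it through NSCs alone, as did 1119 of the 13239 genes tested. The count after the filter, 9 of 9 beside 41.0%, and the median log2 fold change of −4.39, beside 0.08 over all genes tested, are therefore partly set by the filter and are descriptions. The log2 fold changes, computed on log2(FPKM + 1) and therefore understated for genes near 0, ranged from −6.52 for Sox8 (SE 0.08, adjusted p = 1.5e-09, limma with Benjamini-Hochberg adjustment) to −1.63 for Sox11 (SE 0.16, adjusted p = 2.9e-05). Between them were Sox4 at −4.58, Sox6 at −4.57, Sox9 at −4.50, Sox3 at −4.39, Sox1 at −3.45, Sox21 at −3.42, and Sox5 at −3.30. NSC libraries were above EPSC libraries without overlap for each of the 9, as they were for 44.2% of all genes tested. The study's methods also give a rule of size, an average level above 3 FPKM and a fold change above 3, and do not say over which samples the average is taken. With the mean of the higher group taken here, 9 of the 10 genes were lower in EPSCs, beside 8.94% of all genes listed. Sox11 passed this rule narrowly, with an NSC mean 3.38 times that of EPSCs, whereas the ratio was 34.6 for Sox4 and 420.1 for Sox8.

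After fusion, hybrid cells were again lower than NSCs for these 9 genes, in a comparison that shares the NSC libraries with the preceding one. With no filter, limma called all 10 genes, beside 33.2% of genes. After the filter, which 5 of the 9 genes passed through NSCs alone, the count was 9 of 9, beside 42.0% of all genes tested, and the median was −3.85, beside 0.06, again as descriptions. The rule of the methods was met by 9 of 10 genes, beside 8.87%. On the log2(FPKM + 1) scale the largest difference was again that of Sox8, at −6.65 (SE 0.08, adjusted p = 1.4e-09, limma with Benjamini-Hochberg adjustment), and the smallest differences were those of Sox11, at −2.24 (SE 0.16, adjusted p = 4.3e-06), and Sox21, at −2.39 (SE 0.16, adjusted p = 2.6e-06). Sox6 was at −4.59, Sox9 at −4.21, Sox3 at −4.02, Sox4 at −3.85, Sox1 at −3.58, and Sox5 at −3.27. As shares of the NSC mean, Sox6, Sox8, and Sox5 were at 0.0876%, 0.146%, and 0.461% in hybrid cells, Sox1, Sox9, Sox3, and Sox4 at 1.21%, 2.25%, 3.72%, and 5.71%, and Sox21 and Sox11 at 15.9% and 18.0%. The summed neural progenitor list was at 0.485% and 0.498% of its NSC mean, a sum that is mostly Fabp7, and without Fabp7 at 1.82% and 1.85%. In bulk libraries, fewer cells expressing a gene and less RNA per cell cannot be told apart. Scaling each library to a common FPKM sum moved the median of all tested genes to −0.48 for EPSCs and −0.51 for hybrid cells against NSCs, and the medians of the 9 genes to −5.29 and −4.68.

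**Figure D2:**
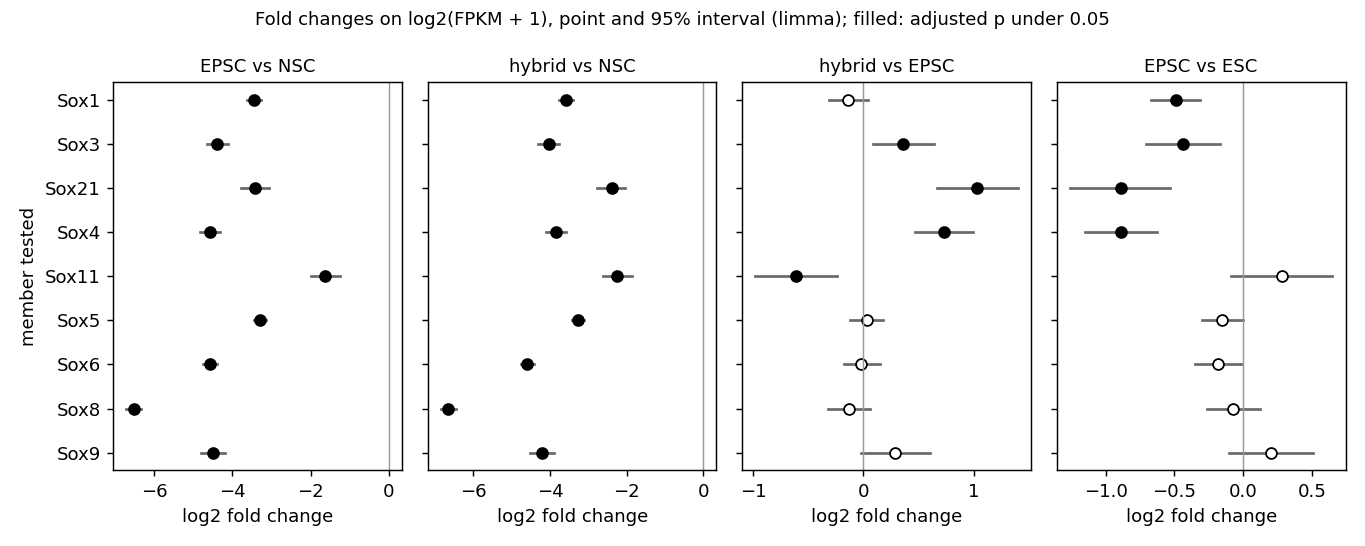
Log2 fold change of log2(FPKM + 1) from limma for the 9 genes tested, with 95% confidence intervals as lines, in 4 panels for the 4 comparisons. Filled points passed an adjusted p of 0.05, and the scale differs between panels. All 9 genes lie below 0 against NSCs, whereas Sox21 (1.03) and Sox4 (0.73) lie above 0 and Sox11 (−0.61) below 0 in hybrid cells against EPSCs.

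Hybrid cells and EPSCs were grown in the same medium, and their comparison asked which Sox genes differed from the pluripotent parent after fusion with the neural one. Limma called 4 of 9 genes, 3 higher in hybrid cells (beside 22.5% of all genes tested) and 1 lower (beside 21.9%), shares that are near the background for so few genes. Sox21 was higher by a log2 fold change of 1.03 (SE 0.16, 95% interval 0.67 to 1.40, adjusted p = 0.00211, limma with Benjamini-Hochberg adjustment), with a ratio of mean FPKM of 2.85. Sox4 was higher by 0.73 (SE 0.11, 0.47 to 0.99, adjusted p = 0.00215), a ratio of 1.97. Both calls held in every alternative setting of processing except the requirement of a 2-fold change, under which Sox21 alone remained. Sox3 was higher by 0.36 (SE 0.12, 0.09 to 0.64, adjusted p = 0.0389), and its call was lost without either EPSC, either NSC, or either hybrid library, where the adjusted p was 0.063 to 0.121, as well as with quantile normalization (0.0946) and with no filter on low values (0.0713). Sox11 was lower by a log2 fold change of −0.61 (SE 0.16, −0.98 to −0.24, adjusted p = 0.018). Its call was lost without the first EPSC library (adjusted p = 0.0896), without the second hybrid library (0.0707), or in a fit of these groups alone (0.0935). None of the 10 genes met the rule of the methods in either direction (beside 0.567% of all genes listed that met it as higher in hybrid cells and 0.300% as lower).

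The other genes were not called between hybrid cells and EPSCs. Sox9 differed by 0.29 (95% interval −0.02 to 0.60, adjusted p = 0.113, limma with Benjamini-Hochberg adjustment). It differed by 0.50 when the second hybrid library was left out, which keeps only the hybrid library with the higher Sox9 value. Sox1 differed by −0.14 (adjusted p = 0.183), and by −0.53 (adjusted p = 0.0359) when 0.1 in place of 1 was added before the log. The intervals of Sox8 (−0.32 to 0.06, adjusted p = 0.241), Sox5 (difference 0.03, adjusted p = 0.759), and Sox6 (−0.02, adjusted p = 0.882) included 0, with all values below 0.35 FPKM. The feeder fibroblast list of 12 genes moved with the groups. It summed to 22.6 and 24.9 FPKM in ESCs, 105.3 and 105.6 FPKM in EPSCs, and 387.5 and 286.4 FPKM in hybrid cells. All 12 of its genes were higher in hybrid cells than in EPSCs (median 1.49), and the hybrid library with the higher sum also had the higher Sox9, Sox4, and Sox11 values and the lower Sox21 and Sox3 values. In NSCs the list summed to 40.3 and 40.5 FPKM, mainly Fbln2 and Prrx1, with Col1a2, Twist2, and Lum at 0. ESCs, another line in another medium, held Sox4, Sox21, and Sox3 at levels overlapping those of hybrid cells. The part of fibroblast RNA in the differences between hybrid cells and EPSCs was not tested. Of the neural progenitor list, 5 of 10 genes passed the test as lower (beside 21.9% of all genes tested) and 0 as higher (beside 22.5%) in the same comparison, with a median of −0.24.

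**Figure D3:**
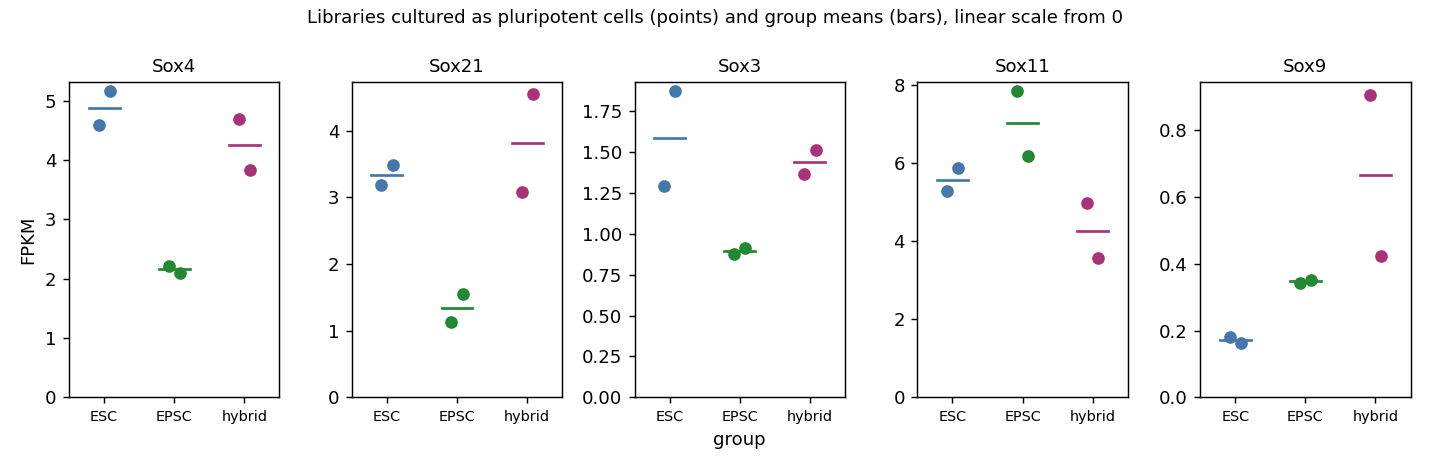
FPKM of Sox4, Sox21, Sox3, Sox11, and Sox9 in the 6 libraries grown on feeder cells, on linear axes from 0 that differ between panels, with points for libraries and a bar at each group mean. Sox4, Sox21, and Sox3 are lowest in EPSCs, with Sox4 at 2.22 and 2.10 FPKM, whereas Sox11 is highest there, at 7.85 and 6.18 FPKM.

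The level of hybrid cells was also placed between its parents on the log2(FPKM + 1) scale, counting NSCs as 0 and EPSCs as 1. It lay at 1.00 for Sox6, 0.992 for Sox5, 1.02 for Sox8, and 1.04 for Sox1. It was 0.932 for Sox9, 0.917 for Sox3, 0.840 for Sox4, and 0.695 for Sox21. Sox11 was at 1.37, thus beyond EPSCs on the side away from NSCs. For Sox6, Sox5, Sox8, and Sox1, the highest EPSC or hybrid value was 0.326 FPKM. At such levels the 1 added before the log holds the position near 1 whatever the ratio of hybrid cells to EPSCs. These positions are descriptions and were not tested beyond the comparisons above.

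EPSCs were also compared with ESCs, a second pluripotent line of other origin and medium, so that line, strain, and medium cannot be told apart. Limma called 4 of 9 genes, all lower in EPSCs, beside 27.3% of all genes tested, and the median was −0.18, beside 0.04. Sox4 and Sox21 were each lower by a log2 fold change of −0.89 (adjusted p = 0.000386 and 0.00191, limma with Benjamini-Hochberg adjustment). Sox1 differed by −0.49 (adjusted p = 0.00114) and Sox3 by −0.44 (adjusted p = 0.0136), and the latter call was lost without the first EPSC library (0.0507) or the second ESC library (0.0852). The remaining differences were −0.15 for Sox5 (adjusted p = 0.075), −0.18 for Sox6 (0.0625), −0.07 for Sox8 (0.455), 0.20 for Sox9 (0.214), and 0.28 for Sox11 (0.162), and limma called none of these. A fit of the ESC and EPSC libraries alone called 7 genes, adding Sox5, Sox6, and Sox9. The share of all genes called in that fit is not given here, so the 7 have no background beside them. The rule of the methods was met by 0 of 10 genes, beside 1.29% of all genes listed that met it as lower in EPSCs and 1.28% as higher. The feeder fibroblast list was higher in EPSCs than in ESCs for 11 of 12 genes, of which 10 passed the test (beside 33.7% of all genes tested), and its part in these differences was not tested. The comparison shares the EPSC libraries with that of hybrid cells and EPSCs, so the low EPSC values of Sox3, Sox4, and Sox21 enter both.

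The balance within Sox groups differed between cell types, which is given as shares of summed FPKM without a test. Sox4 made up 78.4% and 73.2% of the sum of Sox4 and Sox11 in NSCs, 46.5% and 46.8% in ESCs, 22.03% and 25.37% in EPSCs, and 48.5% and 51.9% in hybrid cells. The sum of both genes was 10.4 ± 0.809 FPKM (SD, n = 2) in ESCs, 9.17 ± 1.26 FPKM in EPSCs, and 8.53 ± 1.61 FPKM in hybrid cells, and was 98.3 ± 4.90 FPKM in NSCs. Between these genes, Sox11 was thus in excess in EPSCs and both were at similar levels in hybrid cells. With Sox12, the SoxC gene outside the set, the sums were 29.6 ± 1.91 FPKM in ESCs, 22.2 ± 2.36 FPKM in EPSCs, 15.4 ± 1.24 FPKM in hybrid cells, and 119.1 ± 5.03 FPKM in NSCs, and the pluripotent groups did not overlap. In SoxE, Sox8 made up 79.4% and 80.0% in NSCs, 66.8% and 66.6% in ESCs, 38.5% and 48.1% in EPSCs, and 12.7% and 32.6% in hybrid cells. Sox9 held the larger share in both EPSCs and hybrid cells, and the SoxE sum was 0.841 FPKM in hybrid cells, where Sox8 rests on 9 and 13 fragments, against 146 FPKM in NSCs. All 10 genes together summed to 358.3 and 345.8 FPKM in NSCs, 16.1 and 17.9 FPKM in ESCs, 12.9 and 11.8 FPKM in EPSCs, and 15.4 and 14.3 FPKM in hybrid cells.

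**Figure D4:**
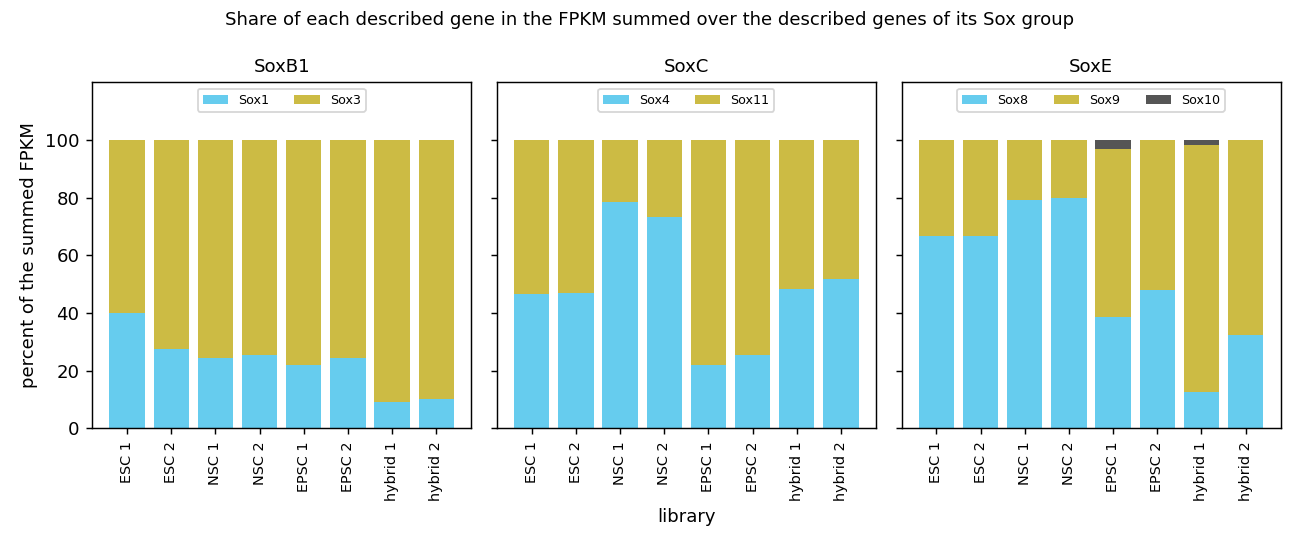
Share of each gene in the summed FPKM of the SoxB1 (Sox1 and Sox3, without Sox2), SoxC (Sox4 and Sox11, without Sox12), and SoxE genes, in percent, 1 bar per library. The Sox4 share is lowest in EPSCs, at 22.03% and 25.37%, and the Sox8 share of SoxE is lowest in hybrid cells, at 12.7% and 32.6%.

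Among the other Sox genes tested, Sox12 also had its highest mean in NSCs, whereas Sox2, Sox7, Sox13, and Sox15 had their lowest there. Of 10 genes in the list of remaining Sox genes and Sry, 5 were tested, of which hybrid cells had 4 at a higher and 1 at a lower level than NSCs (median log2 fold change 1.00), beside 44.5% called higher and 42.0% called lower over all genes tested. Values are given for Sox2, Sox15, and Sox12, the 3 with the highest mean in any of the 4 groups. Sox2 was at 118 ± 2.38 FPKM (SD, n = 2) in NSCs, 158.5 ± 5.18 FPKM in EPSCs, 164 ± 4.75 FPKM in hybrid cells, and 192 ± 16.4 FPKM in ESCs. It was higher in hybrid cells than in NSCs by 0.47 (adjusted p = 0.000274, limma with Benjamini-Hochberg adjustment), a direction that turned to −0.14 with libraries scaled to a common sum and −0.05 with quantile normalization. Sox15 was at 27.1 and 27.0 FPKM in hybrid cells and 0.0372 and 0.0748 FPKM in NSCs, the reverse of the 10 genes. Sox12, the remaining SoxC gene, was at 6.63 and 7.15 FPKM in hybrid cells, 13.8 and 12.3 FPKM in EPSCs, and 20.9 and 20.7 FPKM in NSCs, so that it was below both parents, as Sox11 was. Against EPSCs it differed in hybrid cells by −0.83 on the log2 scale (adjusted p = 0.000417, limma with Benjamini-Hochberg adjustment).

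**Figure D5:**
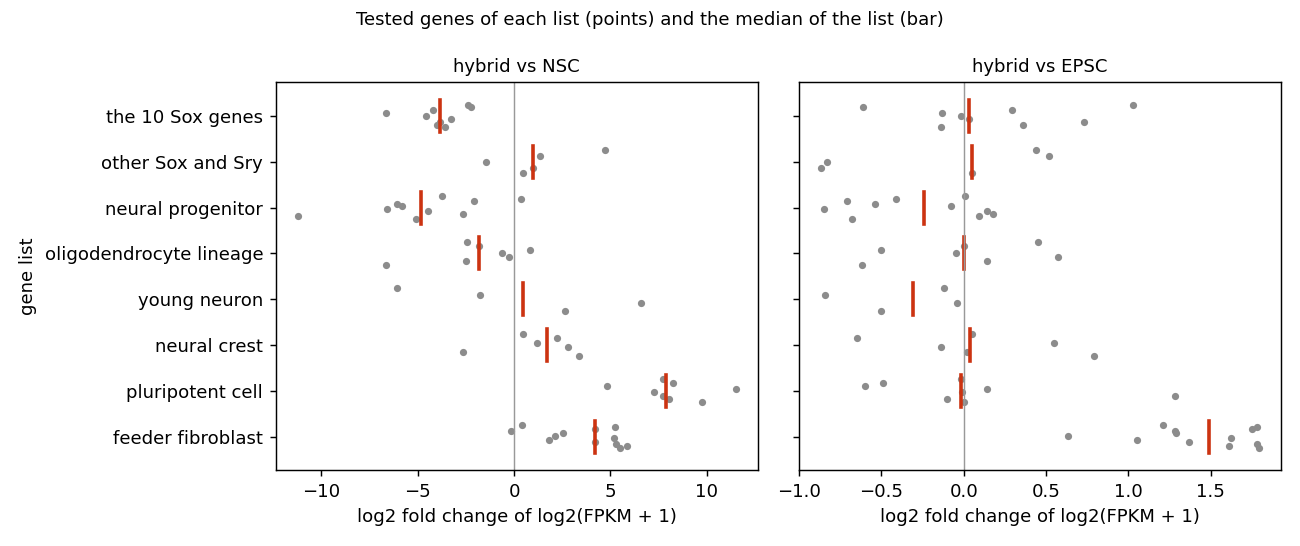
Log2 fold changes of log2(FPKM + 1) in hybrid cells against NSCs and against EPSCs, with 1 point per tested gene of the 10 Sox genes (9 tested), the other Sox genes, and the marker lists, and a bar at each median. Against NSCs the medians are −3.85 for the Sox genes, −4.80 for neural progenitor genes, and 1.00 for the other Sox genes, and against EPSCs all 12 feeder fibroblast genes lie above 0.

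Marker lists of the tissues in which these factors act are given by their counts, without a test between lists. In hybrid cells against NSCs, 9 of 10 neural progenitor genes were lower (beside 42.0% of all genes tested) and 1 higher (beside 44.5%), with a median of −4.80. Of the oligodendrocyte lineage genes, 6 of 7 tested were lower, of which Gpr17 and Cspg4 passed the filter through NSCs alone, and the 1 remaining was not called (median −1.80). Pdgfra, among the 6, was at −0.28 (adjusted p = 0.0118, limma with Benjamini-Hochberg adjustment) and turned to 0.04 with quantile normalization (0.701). Of the neural crest genes, 5 of 6 tested were higher (beside 44.5% of all genes tested) and 1 lower (median 1.71). Against EPSCs, 2 of these 6 were called higher (beside 22.5%) and 1 lower (beside 21.9%), with a median of 0.04. Of the young neuron genes, 2 of 4 tested were higher and 2 lower (median 0.45). Stmn2 was at 168.1 and 128.6 FPKM in hybrid cells and 0.493 and 0.531 FPKM in NSCs, and Map2 at 1.77 and 1.75 FPKM against 172.7 and 191.1 FPKM. In EPSCs, Stmn2 was at 166.9 and 136.2 FPKM and Map2 at 2.304 and 1.705 FPKM. Against EPSCs, 0 of the 4 young neuron genes were called higher (beside 22.5%) and 1 lower (beside 21.9%), with a median of −0.31. A further 4 genes of that list did not reach the filter, and of 8 cartilage genes only 1 was tested. Over the 4 group means, the gene nearest to Sox8 in level was Rfx4, at 97.2 FPKM in NSCs and 0.147 FPKM in hybrid cells (Euclidean distance 0.327 on the log2 scale). The nearest to Sox4 was Fgfrl1 (distance 0.330), at 67.2 FPKM in NSCs, 2.24 FPKM in EPSCs, and 3.37 FPKM in hybrid cells, and the nearest to Sox3 was Gas1 (0.273), at 40.6, 1.09, and 1.83 FPKM.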

How the data were processed

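Poly-A libraries were prepared with a stranded kit and sequenced as 100-base pairs. The authors trimmed reads with skewer, aligned them to mm10 with STAR 2.7.9a, and deposited FPKM per gene and library from Cuffnorm of Cufflinks 2.2.1. The gene annotation, strand setting, and library normalization are not given in the sources used here. Both libraries of a group stayed separate, and 0 columns belonged to other samples. Groups were taken from the labels.

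Limma 3.58.1 in R 4.3.3 (trend and eBayes) was fitted to log2(FPKM + 1) of all 8 libraries, with 4 residual and 3.25 prior degrees of freedom, for 13239 genes with a mean of at least 1 FPKM in at least 1 group. Tests were two-sided with Benjamini-Hochberg adjustment over all genes tested, at 0.05. With 2 libraries a group, the smallest two-sided p of an exact permutation test is 0.333. Intervals of fold changes are at 95%. The fit was tested on simulated data. Fragments were derived from FPKM steps of 2247 genes with 1 transcript, assuming 200-base fragments, and are estimates. Locations and start windows are from RefSeq (GRCm38.p6), overlaps and transcripts from GENCODE M21. All 10 members were to be named, with up to 3 of each list by highest mean and the nearest gene of the 3 most abundant members. Col1a2, Twist2, Lum, Prrx1, Sox12, and 2810468N07Rik were named in addition where a count or overlap turned on them. Members and lists were chosen with earlier results of these data known. Alternatives covered the added constant, filter, scaling, quantile normalization, groups in the fit, thresholds, replicate block, and each library left out. With a library left out, its group held 1 library, and the spread in that fit came from the other groups. Python 3.11.15 was used with pandas 2.3.3.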

Additional observations from a re-analysis of the deposited data

How the results depend on the processing

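Against NSCs, all 9 tested genes stayed lower under each of 15 alternative settings in both comparisons, and all 9 also changed more than 2-fold. Of the 9, 5 passed the filter through NSCs alone, and most settings kept that filter, so this is a description and not support. In the main fit, 41.0% and 42.0% of all genes tested were called lower in EPSCs and in hybrid cells than in NSCs. Between hybrid cells and EPSCs, the main count of 4 called genes fell to 1 when more than a 2-fold change was required and was 2 to 4 with each library left out. The rule of the methods, met by 0 genes, was met by 1 with both thresholds at 2 and by 0 to 1 with each library left out, 1 without the second EPSC library or the first hybrid library. Between EPSCs and ESCs, the 4 called genes became 7 in a fit of both groups alone, 6 with libraries scaled to a common sum, and 0 with a 2-fold change required, were 3 to 6 with each library left out, and 2 genes met the rule of the methods with both thresholds at 2. The Sox6 difference between hybrid cells and EPSCs was −0.02 and lay between −0.04 and 0.01 with each library left out, turning to 0.01 without the second EPSC library (adjusted p = 0.923). The cause of these shifts was not tested. For hybrid cells against EPSCs and EPSCs against ESCs, shares over all genes under the alternative settings are not given here. The changed counts therefore have no background beside them. With the replicate block, 9, 9, 4, and 4 genes were called (EPSCs and hybrid cells against NSCs, hybrid cells against EPSCs, EPSCs against ESCs), as without it, and deviations of same-numbered libraries correlated at 0.07, −0.02, 0.28, and 0.06, so the numbers are not shown to pair libraries. Depth limits Sox1, Sox3, Sox5, Sox6, Sox8, Sox9, and Sox10 outside NSCs, where Sox1 and Sox3 in ESCs had the most fragments (up to 107 and 105).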

Other observations

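Olig1 and Olig2, basic helix-loop-helix factors of the oligodendrocyte lineage, were not confined to NSCs. Olig1 was at 8.60 and 9.82 FPKM in EPSCs, 5.29 and 5.99 FPKM in hybrid cells, 0.341 and 0.203 FPKM in ESCs, and 664.6 and 663.3 FPKM in NSCs. Olig2 was at 5.89 and 6.09 FPKM in EPSCs, 4.06 and 3.56 FPKM in hybrid cells, 0.0274 and 0.0746 FPKM in ESCs, and 320.2 and 333.5 FPKM in NSCs. Both were higher in EPSCs than in ESCs, by log2 fold changes of 3.0 and 2.73 (adjusted p = 1.3e-06 and 1.2e-06, limma with Benjamini-Hochberg adjustment), and lower in hybrid cells than in EPSCs, by −0.62 and −0.54 (adjusted p = 0.002 and 0.00181). The SoxE genes of glia, Sox8, Sox9, and Sox10, were each at or below 0.352 FPKM in EPSCs.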
